A study of Homo sapiens with 6 samples.

Results

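The 2 libraries of untreated cells, out of 6 libraries in the series, are described here by the transcript levels of their genes, with no contrast to treated cells. They were chosen by their treatment label alone. The cells are labelled MHCC97-H, a line derived from a human hepatocellular carcinoma, with wild-type genotype. All 6 libraries carry the same time of 16 h in their titles. The cells were grown in DMEM with fetal bovine serum, and polyadenylated RNA was sequenced from TruSeq libraries. The other 4 libraries come from the same line treated for 16 h with 40 µM chloroquine (2 libraries) or 0.2 mM melatonin (2 libraries). They enter below only as values beside those of untreated cells, and differences from them were not tested. Whether the untreated libraries stem from separate cultures is not in the labels, so the SD of a level (n = 2) measures the spread between these libraries, which may be technical.

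Hepatocytes are defined by a network of transcription factors, among them HNF4A and the FOXA proteins, which maintain one another and drive genes for plasma proteins, urea synthesis, detoxification and bile transport. Keratins are the intermediate filaments of epithelial cells. They form obligate pairs of a type I and a type II chain, and KRT8 with KRT18 is the pair of simple epithelia, the only pair of normal hepatocytes, whereas KRT7 and KRT19 mark bile ducts and other ductal epithelia. Because tissues use different transcription factors, keratins and surface receptors, the levels of these families describe a cell without any comparison.

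Untreated libraries 1 and 2 held 16716600 and 18514180 counts, within the range of 15993730 to 23311452 over the series. Levels are given as CPM, counts scaled to library size with TMM factors, and as TPM, which also divides by the length of a gene's exons. The order of levels between genes is read from TPM unless CPM is named. A gene was called detected at 1 CPM or more in both untreated libraries, which held for 13910 of 62710 genes (22.2%) and for 11939 of 19855 protein-coding genes (60.1%). A count of 0 allows up to 3 counts, or 0.184 CPM in library 1 and 0.166 CPM in library 2, and such limits and intervals cover counting error only. Mitochondrially encoded genes took 5.01% and 4.80% of the counts, and 86 ribosomal protein genes 4.95% and 4.97%. In bulk RNA, fewer cells with a transcript and less transcript per cell cannot be told apart.

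The albumin gene ALB had no count in either untreated library, and neither had AFP, the fetal albumin-like gene used as a serum marker of liver cancer. The promoters of both are shown here because these genes define the labelled tissue, and those of 2 tumour suppressors with very different levels, STK11 and CDKN2A, are set beside them. Each runs from 250 bases before to 50 bases after the start of the gene in RefSeq on GRCh38.p14. The windows are chr4:73404037-73404336 for ALB, chr4:73435971-73436270 for AFP and chr19:1205528-1205827 for STK11, all on the plus strand, and chr9:21995275-21995574 on the minus strand for CDKN2A. Capitals mark 4 motifs found on either strand: TATAAA (the TATA box), GGGCGG (the GC box), CCAAT and GTTAAT (a run known from liver promoters). None of the marked runs overlaps another.
ALB: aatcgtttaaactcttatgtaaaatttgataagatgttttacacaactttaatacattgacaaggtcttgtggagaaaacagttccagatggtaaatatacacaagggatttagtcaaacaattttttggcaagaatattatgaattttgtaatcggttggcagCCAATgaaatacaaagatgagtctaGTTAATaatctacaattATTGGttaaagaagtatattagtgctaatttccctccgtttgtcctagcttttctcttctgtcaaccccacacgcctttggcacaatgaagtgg
AFP: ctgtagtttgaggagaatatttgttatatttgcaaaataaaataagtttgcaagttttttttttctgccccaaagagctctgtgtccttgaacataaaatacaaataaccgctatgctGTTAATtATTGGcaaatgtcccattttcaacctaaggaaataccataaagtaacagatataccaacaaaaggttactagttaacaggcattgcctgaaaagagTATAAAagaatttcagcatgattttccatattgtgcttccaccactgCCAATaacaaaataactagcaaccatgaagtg
STK11: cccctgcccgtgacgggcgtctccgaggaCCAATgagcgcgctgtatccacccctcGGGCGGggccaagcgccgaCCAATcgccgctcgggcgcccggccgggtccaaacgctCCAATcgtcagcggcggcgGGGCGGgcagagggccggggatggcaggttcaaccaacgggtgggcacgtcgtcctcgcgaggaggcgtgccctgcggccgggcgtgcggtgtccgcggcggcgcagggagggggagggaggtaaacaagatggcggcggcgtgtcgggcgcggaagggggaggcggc
CDKN2A: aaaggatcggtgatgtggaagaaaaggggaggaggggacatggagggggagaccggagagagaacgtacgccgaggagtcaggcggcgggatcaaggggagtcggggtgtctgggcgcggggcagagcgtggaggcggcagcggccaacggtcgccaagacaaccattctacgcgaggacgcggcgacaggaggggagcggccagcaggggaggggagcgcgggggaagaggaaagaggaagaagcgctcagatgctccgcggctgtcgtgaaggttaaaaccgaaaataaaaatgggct

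The ALB window held 1 GTTAAT, from 61 bases before the start, and 2 CCAAT boxes. The AFP window held 1 GTTAAT from 132 bases before the start and a TATAAA from 29 bases before it. Of all 27305 promoters in the RefSeq table, 6.89% held GTTAAT, 12% TATAAA, 44.6% GGGCGG and 35.7% CCAAT. The STK11 window held 2 GGGCGG, 3 CCAAT and 44 CpG dinucleotides at a GC content of 75.3%, against 4 CpG in ALB and 1 in AFP. The CDKN2A window, which covers the most upstream start of this gene, held 28 CpG and none of the 4 motifs. The annotated extents of ALB, AFP and STK11 given below begin upstream of their windows, so starts further upstream are not covered. A match of letters is a description of the window, and none of these windows was measured for binding or methylation.

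Of 92 genes of hepatocyte function on 3 lists, 14 were detected (15.2%, against 60.1% of all protein-coding genes). In both untreated libraries 44 of the 92 were at 0 and 65 had 3 counts or fewer. Across all 6 libraries 76 stayed under 1 CPM and 22 had no count at all. Most of the 92 genes were thus at the limit of detection. The label of a liver cell rests on few of its usual markers here.

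Plasma proteins were the emptiest group, with 3 of 38 genes detected. ALB (ENSG00000163631, chromosome 4, 73397114 to 73421412, plus strand, GRCh38) had 0 counts in both untreated libraries, which puts its level below 0.107 CPM by the exact Poisson 95% interval of the summed count. In the treated libraries it had 1 count in all. AFP (ENSG00000081051, chromosome 4, 73431138 to 73456174, plus strand) also had 0 and 0 counts, with 2 counts over the treated libraries. APOB and TTR, which encode a lipoprotein scaffold and the thyroxine carrier transthyretin, had 0 counts in every one of the 6 libraries. SERPINA1, the gene of alpha-1-antitrypsin, had 2 and 7 counts. The exception was C3, the central complement component, at 451 and 453 CPM (452 ± 1.30, SD, n = 2) and at percentile 94.9 of TPM among detected genes. VTN (vitronectin) at 4.82 ± 0.635 CPM and RBP4 (the retinol carrier) at 2.0 ± 0.143 CPM were the other detected members. C3 is also made by cells outside the liver.

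Hepatocyte transcription factors were detected in 4 of 15 cases, all at low levels. HNF4A (ENSG00000101076, chromosome 20, 44355700 to 44434596, plus strand) was at 2.14 and 1.93 CPM, from 35 counts in each library. Its mean of 1.01 TPM lay at percentile 1.91 of detected genes. In the treated libraries its level ran from 0.362 to 1.55 CPM, below both untreated libraries. FOXA1, a pioneer factor of endodermal and hormone-responsive epithelia, was at 10.0 ± 0.180 CPM, ONECUT2 at 9.19 ± 1.23 CPM and CREB3L3, a liver and gut factor of lipid metabolism, at 7.01 ± 0.218 CPM. FOXA2 had 0 counts in all 6 libraries and NR1H4 (the bile acid receptor FXR) had 0 in both untreated ones. Per length CREB3L3 at 9.48 TPM and FOXA1 at 9.14 TPM lay above ONECUT2 at 2.05 TPM and HNF4A.

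Among 39 enzymes and transporters, 7 were detected, and CPS1 stood far above the others. CPS1 (ENSG00000021826, chromosome 2, 210477682 to 210679107, plus strand) encodes carbamoyl-phosphate synthetase, the mitochondrial entry step of the urea cycle. It was at 1359 and 1323 CPM in untreated cells, from 22201 and 23945 counts, and had rank 49 of all genes by CPM. Its length brings this to 451 TPM, percentile 98.2. In the chloroquine libraries CPS1 was at 1184 and 1216 CPM, and in the melatonin libraries at 443 and 436 CPM. All treated libraries thus lay below both untreated ones, with the melatonin libraries lowest.

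The rest of the urea cycle, looked up after these values were seen, was uneven. OTC, the next enzyme, had 0 counts in all 6 libraries. ASS1, which joins citrulline and aspartate, was at 456 and 471 CPM (551 TPM), and ASL, which cleaves the product, at 17.1 and 14.5 CPM (17.9 TPM). ARG1, the liver arginase, had 2 and 0 counts, whereas ARG2, its counterpart in other tissues, was at 5.51 and 6.47 CPM, with 37.4% of its exons shared with other genes. NAGS, which makes the activator of CPS1, was at 4.81 ± 0.393 CPM and SLC25A15, the ornithine carrier, at 37.2 ± 0.138 CPM. OTC, the step between CPS1 and ASS1, was thus at 0 while both of these were high.

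The other detected enzymes and transporters were low. FAH, the last enzyme of tyrosine breakdown, was at 28.2 ± 1.42 CPM and HPD, an earlier step of that pathway, at 5.85 ± 0.482 CPM. SLCO1B3, a hepatic uptake transporter, was at 11.3 CPM in both libraries, with 54.5% of its exons shared with overlapping genes. UGT1A1, the bilirubin conjugating enzyme, was at 7.51 ± 0.321 CPM. Its locus shares exons among all UGT1A forms, and UGT1A7 was counted at 114 ± 2.44 CPM, so how counts divide between them is uncertain. The asialoglycoprotein receptor genes ASGR1 and ASGR2 had 3 and 3, and 0 and 0 counts, and SLC10A1, the bile salt importer, had 4 and 1. Summed over the 3 hepatocyte lists, levels came to 1907 and 1880 CPM, but without CPS1 and C3 to only 97 and 104 CPM.

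**Figure D1:**
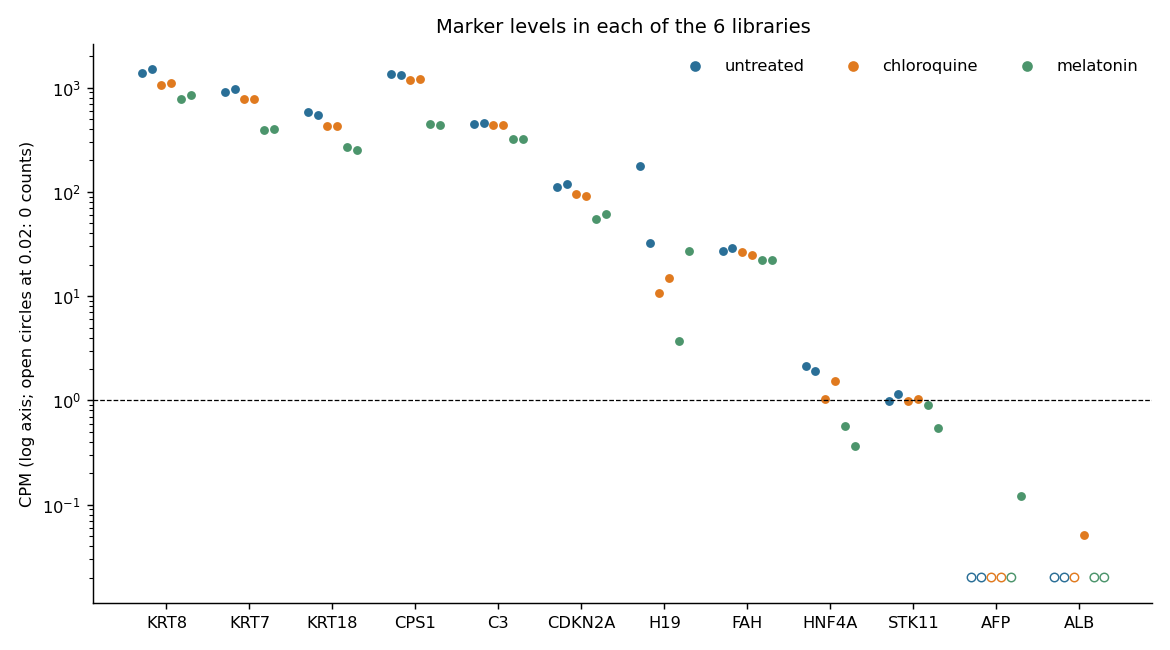
CPM on a log axis of 12 genes in each of the 6 libraries, 1 point per library, with 0 counts drawn as open circles at 0.02 and a dashed line at 1 CPM. KRT8, KRT7, KRT18, CPS1 and C3 lie highest, STK11 lies at the detection line, and ALB and AFP at 0 in both untreated libraries.

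Markers used for liver tumours were split. Of 18 such genes 8 were detected (44.4%, against 60.1% of all protein-coding genes). The detected ones had a median of 85.3 TPM against 20.9 TPM over all detected genes with a length. CD24, a surface glycoprotein of progenitor cells, was at 277 ± 1.91 CPM, PEG10, a retrotransposon-derived imprinted gene, at 251 ± 8.21 CPM, and GOLM1, a Golgi protein, at 188 ± 0.0840 CPM. SALL4, a fetal stem cell factor, was at 65.3 ± 1.92 CPM. GPC3, DLK1, SPP1 and LIN28B, further fetal or tumour genes of liver, had 0 counts in both untreated libraries, like AFP.

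Keratins were dominated by a few members. Of 28 type I genes 6 were detected (21.4%) and of 26 type II genes 5 (19.2%), against 60.1% of all protein-coding genes. The most abundant per length was KRT7 (ENSG00000135480, chromosome 12, 52232520 to 52252186, plus strand) at 915 and 972 CPM, or 835 ± 39.5 TPM. KRT8 (chromosome 12, 52897187 to 52949954, minus strand) was at 1397 and 1496 CPM, or 761 ± 40.3 TPM. KRT18 (chromosome 12, 52948871 to 52952901, plus strand) was at 585 and 542 CPM, or 634 ± 31.5 TPM. Per length KRT7 was above KRT8 in both libraries, at 807 against 733 TPM and 863 against 790 TPM, but the ranges of mean ± SD overlap. By CPM KRT8 lay above KRT7 in both libraries, so their order rests on the exon lengths used. KRT18 lay below KRT7 and KRT8 by either measure. KRT8 and KRT18 have many processed pseudogenes and their annotated ends overlap on opposite strands, so some reads could have been counted elsewhere.

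These 3 genes made up 89.2% of the TPM of all keratins in each untreated library, and all of them lay at or above percentile 98.9 of detected genes. KRT80, a type II keratin, followed at 119 ± 2.55 CPM and KRT17, a type I keratin of basal and wounded epithelium, at 90.3 ± 3.88 CPM. KRT19, the usual type I companion of KRT7 in ducts, was at only 8.94 and 8.73 CPM (13.7 TPM, percentile 39.1). KRT5 and KRT14, the basal epidermal pair, had 0 counts in both untreated libraries. Type II keratins summed to 1656 and 1777 TPM and type I to 807 and 763 TPM. Transcripts of type II keratins thus exceeded those of type I by a ratio of 2.05 and 2.33 in the untreated libraries, although the proteins pair 1 to 1. In the treated libraries this ratio was 1.96 to 2.24. By CPM type II keratins summed to 2439 and 2601 and type I to 710 and 668, so its size depends on exon length. KRT7 ran from 393 to 776 CPM in the treated libraries, KRT8 from 784 to 1103 CPM and KRT18 from 250 to 431 CPM. Each of these genes thus lay below both untreated libraries there.

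**Figure D2:**
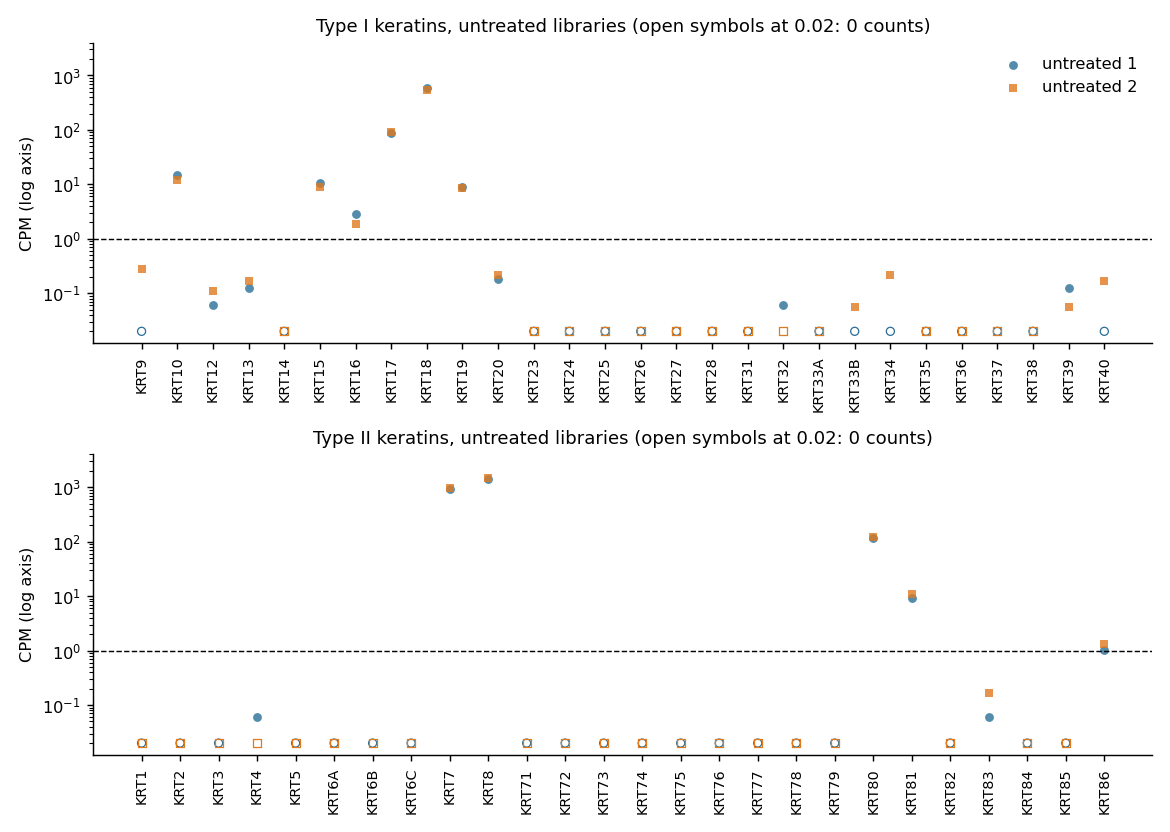
CPM on a log axis of 28 type I keratins (upper panel) and 26 type II keratins (lower panel) in untreated libraries 1 (circles) and 2 (squares), with 0 counts as open symbols at 0.02 and a dashed line at 1 CPM. KRT7, KRT8 and KRT18 stand highest, KRT17 and KRT80 next, and most other members are at 0 or under 1 CPM.

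Bile duct and progenitor markers were detected in 10 of 15 cases, a share close to the 60.1% of protein-coding genes. KRT7 led them. SOX4, a progenitor factor, was at 148 ± 6.38 CPM, MUC1, an apical mucin, at 68.1 ± 6.63 CPM and the annexin ANXA4 at 66.7 ± 0.828 CPM. SPP1 (osteopontin) had 0 counts in both untreated libraries. SOX9, a factor of bile ducts, was at 1.54 CPM.

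Of 36 epithelial genes 25 were detected (69.4%) and of 25 mesenchymal genes 19 (76.0%), against 60.1% of all protein-coding genes. The desmosomal genes DSG2 at 254 ± 2.86 CPM (148 TPM) and DSP at 346 ± 2.84 CPM (124 TPM) were the highest epithelial members per length, and ELF3, an epithelial ETS factor, was at 120 ± 4.19 CPM (60.5 TPM). CDH1, the gene of E-cadherin, was at 8.08 and 8.90 CPM (4.98 TPM, percentile 18.2) and EPCAM at 9.05 ± 0.529 CPM. GRHL2, a factor that maintains epithelial junctions, had 0 and 1 counts and the tight junction gene CLDN3 had 0 in both.

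Among the mesenchymal genes COL5A1, a fibrillar collagen chain, was at 1005 and 972 CPM (320 TPM, percentile 97.3). S100A4 was at 131 ± 1.38 CPM but, being short, at 464 TPM. VIM, the gene of vimentin, was at 265 ± 8.41 CPM, TGFBI at 287 ± 10.8 CPM and LOX, which crosslinks collagen, at 188 ± 22 CPM. COL1A1 was at only 14.5 ± 1.87 CPM, and COL1A2, its partner chain in type I collagen, had 0 counts in both untreated libraries. These levels are averages over the culture, and whether single cells expressed genes of both lists was not measured.

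Among 93 transcription factors that mark lineages, 38 were detected (40.9%, against 60.1% of protein-coding genes) and 33 were at 0 in both untreated libraries. Per length the highest was KLF5, a factor of gut and other proliferating epithelia, at 195 and 194 CPM (181 TPM, percentile 94.3). GATA2, a factor of blood, endothelium and placenta, was at 81.6 ± 4.11 CPM (66.2 TPM). FOXF1, a factor of visceral mesoderm, was at 59.5 ± 2.98 CPM (61.3 TPM). TBX3, a T-box factor that acts in liver buds and limbs, was at 74.8 ± 1.67 CPM and TFAP2A, a factor of surface ectoderm and neural crest, at 89.9 ± 2.21 CPM. These factors are known from several germ layers.

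The other named lineage factors were lower. PITX1, a factor of the hindlimb, was at 35.0 ± 1.91 CPM, TFAP2C, of trophoblast and germ cells, at 29 ± 0.409 CPM, and MITF, of melanocytes and many other cells, at 49.1 ± 4.47 CPM. GATA6 and GATA4, the endodermal members that act in early liver, were at 6.92 ± 0.0879 and 5.19 ± 1.40 CPM. GATA3 had 3 and 1 counts and SOX2 had 0 in all 6 libraries. PAX8 (Müllerian, renal and thyroid) at 6.03 ± 0.558 CPM, NKX2-1 (lung and thyroid) at 1.31 ± 0.136 CPM and CDX2 (intestine) at 0 counts were all low or undetected.

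HOX genes, which encode position along the body axis, were broadly on, with 32 of 39 detected (82.1%), against 60.1% of all protein-coding genes. Members of paralogue groups 9 to 13, the posterior end of the clusters, were detected in 15 of 16 cases and summed to 380 and 372 TPM. Groups 5 to 8 (10 of 11 detected) summed to 142 and 140 TPM, and groups 1 to 4 (7 of 12) to 41.8 and 43.2 TPM. HOXC10 at 62.5 TPM, HOXB7 at 59.2 TPM and HOXD10 at 56.8 TPM were the highest members. All 4 clusters contributed, with sums of 111 and 110 TPM for HOXA, 133 and 129 for HOXB, 188 and 188 for HOXC and 131 and 128 for HOXD. Neighbouring HOX genes share annotated exons, up to 27% for HOXA9, so the level of single members is less certain than these sums. The grouping by position was made after the values were seen.

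Nuclear receptors, which turn hormones, lipids and bile acids into transcription, were detected in 31 of 48 cases. That share of 64.6% was close to the 60.1% of all protein-coding genes. NR3C1, the glucocorticoid receptor, was highest at 183 and 176 CPM (71.0 TPM, percentile 81.9). RARG, a retinoic acid receptor, was at 72.2 ± 2.07 CPM, its partner RXRB at 53.7 ± 0.442 CPM, PPARG, the receptor of fat storage, at 51.6 ± 3.22 CPM and NR2F2 at 72.7 ± 1.74 CPM. PGR, the progesterone receptor, had 0 counts in both untreated libraries. NR1I2, the liver receptor for foreign compounds, and NR0B2, the bile acid feedback repressor, were also at 0 there. The receptors at high levels are ones that many tissues use.

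Of 60 tumour suppressors 56 were detected (93.3%, against 60.1% of all protein-coding genes), with a median of 32.9 TPM. RB1 was at 120 ± 1.69 CPM and SMAD4 at 102 ± 2.48 CPM, named here for their familiarity and not by the rule for named genes. The highest per length were the metabolic genes FH (fumarase) at 237 ± 5.24 CPM and SDHB (a succinate dehydrogenase subunit) at 117 ± 8.83 CPM. The cell cycle inhibitors CDKN1A (p21) at 123 ± 2.50 CPM and CDKN1B (p27) at 86.3 ± 0.0193 CPM came next. A transcript level says nothing of mutation or protein.

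CDKN2A (ENSG00000147889, chromosome 9, 21967753 to 21995301, minus strand) encodes the CDK inhibitor p16 and, from another first exon and reading frame, the growth inhibitor p14ARF. A gene count joins both. It was at 110 and 120 CPM (96.3 ± 5.85 TPM, percentile 87.4), from 1805 and 2165 counts. MTAP and CDKN2B, its neighbours in a region often deleted in tumours, were at 133 ± 0.675 and 67.2 ± 2.84 CPM. In the treated libraries CDKN2A ran from 54.6 to 94.5 CPM, below both untreated libraries. The 3 genes of the locus were thus all well expressed.

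STK11, the gene of the kinase LKB1 that activates AMPK (ENSG00000118046, chromosome 19, 1177558 to 1228435, plus strand), was near the detection line. It had 16 and 21 counts, or 0.979 and 1.16 CPM, and so missed the threshold in library 1 and passed it in library 2. The exact Poisson 95% interval of the pooled level was 0.757 to 1.48 CPM. The 4 treated libraries lay between 0.543 and 1.03 CPM. Of the 8 protein-coding genes around it in annotation order, 7 lay between 26.3 TPM (ATP5F1D) and 179 TPM (GPX4) and CBARP, directly downstream, at 0.669 TPM, against 0.449 TPM for STK11. CAB39, which encodes the scaffold MO25 of the LKB1 complex, was at 154 ± 2.0 CPM (104 TPM), and STRADA, which encodes its pseudokinase, at 10.8 ± 0.616 CPM (3.61 TPM).

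The remaining tumour suppressors under 1 CPM were FHIT, TP73 and DLC1. FHIT, a gene across a common fragile site, had 0 counts in all 6 libraries. Of the protein-coding genes around it, FAM107A, FAM3D, FEZF2 and CADPS were also at 0 in both untreated libraries, and ACOX2 had 1 count. CFAP20DC was at 1.59 ± 0.608 CPM, C3orf14 at 3.29 ± 0.196 CPM and PTPRG, the next gene on the chromosome, at 6.0 ± 0.350 CPM. TP73, a transcription factor gene, had 4 and 1 counts, and DLC1, a gene often lost in liver cancer, had 1 and 4. Neither copy number nor methylation was measured, so what lies behind a low count was not tested.

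**Figure D3:**
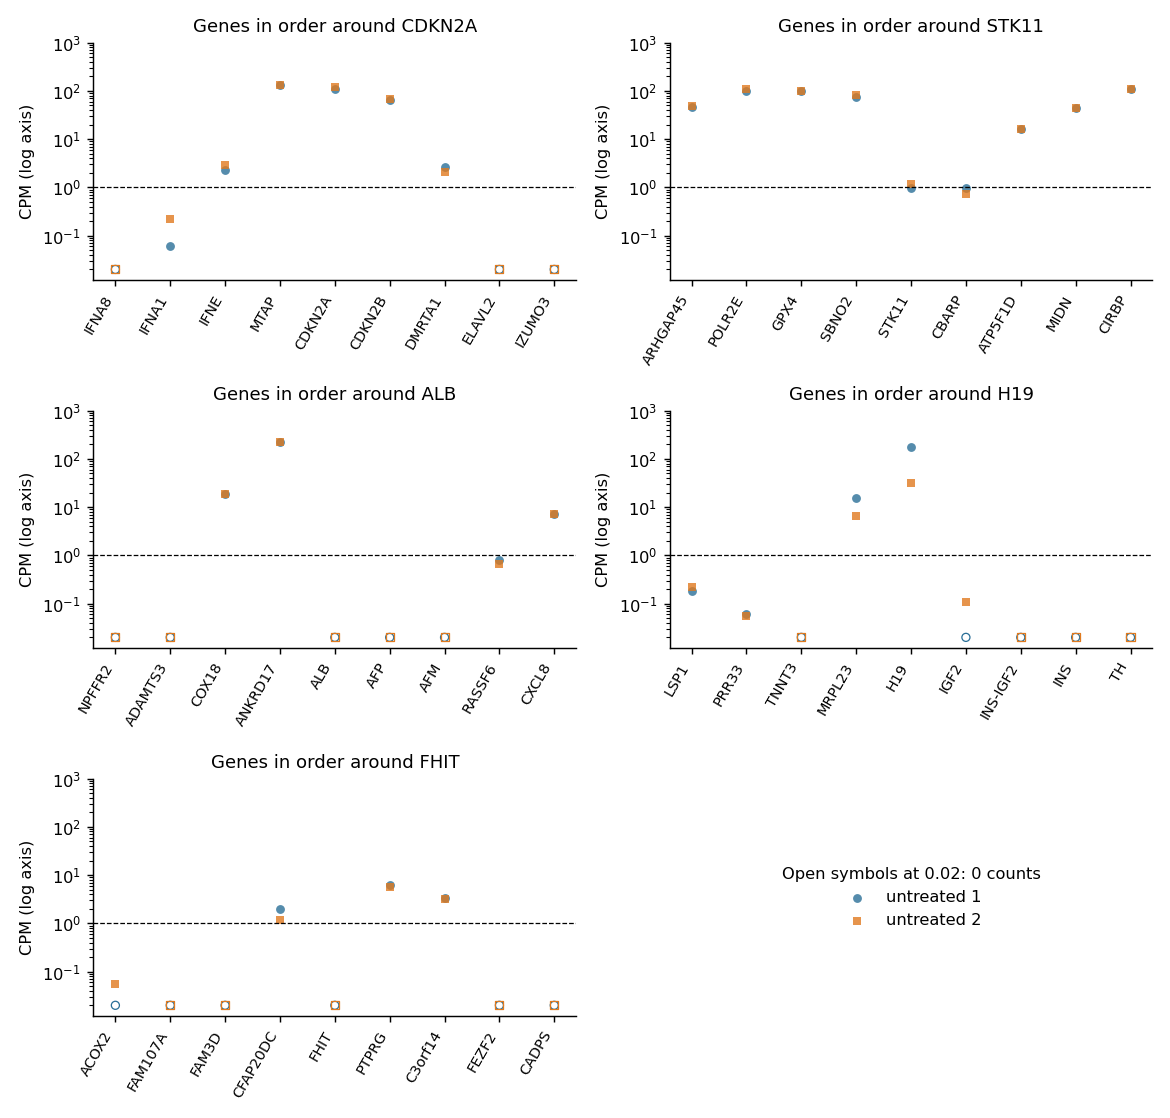
CPM on a log axis of protein-coding genes in annotation order, up to 4 on each side of CDKN2A, STK11, ALB, H19 and FHIT, in untreated libraries 1 (circles) and 2 (squares), with 0 counts as open symbols at 0.02 and a dashed line at 1 CPM. ALB, AFP and AFM are at 0 beside ANKRD17 at 225 CPM, STK11 lies at about 1 CPM beside SBNO2 at 77.9 CPM, and H19 and MRPL23 are the genes whose libraries stand apart.

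Oncogenes were detected in 36 of 40 cases (90%, against 60.1% of all protein-coding genes). The detected ones had a median of 54.3 TPM, against 20.9 TPM over all detected genes with a length. MYC, a driver of growth, was at 313 CPM in both libraries (378 TPM, percentile 97.8) and MCL1, an inhibitor of apoptosis, at 449 ± 10.5 CPM. CDK4, which CDKN2A's p16 product inhibits, was at 183 ± 4.47 CPM, with 43.2% of its exons shared with other genes. SKP2, which targets p27 for degradation, was at 173 ± 1.89 CPM. MYCN, with a mean of 0.111 CPM, and SOX2 lay at or near 0. TERT, the telomerase catalytic subunit, had 27 and 18 counts, or 1.65 and 0.995 CPM, and so passed the threshold in library 1 and missed it in library 2.

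Receptors on the surface were surveyed in 4 lists. Of 58 receptor tyrosine kinases 31 were detected (53.4%, against 60.1% of all protein-coding genes) and 12 were at 0 in both untreated libraries. MET, the receptor for hepatocyte growth factor, was at 253 and 249 CPM (129 TPM, percentile 91.0), the highest per length. IGF1R, the insulin-like growth factor receptor, was at 401 and 397 CPM (104 TPM). EPHA2 was at 87.7 ± 0.406 CPM, RYK, a WNT receptor, at 131 ± 0.738 CPM, and AXL, a receptor of the GAS6 ligand, at 70.7 ± 0.200 CPM.

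EGFR was at 150 ± 4.48 CPM (43.4 TPM) and ERBB2 at 99.9 ± 0.547 CPM (35.0 TPM). KIT, PDGFRA, RET and ALK had 0 counts in both untreated libraries. PDGFRB was low at 9.28 ± 0.317 CPM.

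Of 51 cytokine and death receptors 34 were detected (66.7%), near the 60.1% of all protein-coding genes. TNFRSF1A, the main TNF receptor, was at 172 and 184 CPM (161 TPM), and TNFRSF10B, a TRAIL death receptor, at 213 and 206 CPM (147 TPM). OSMR, the oncostatin M receptor, was at 249 and 237 CPM (123 TPM), and its signalling partner IL6ST (gp130) at 149 ± 4.37 CPM. GHR, the growth hormone receptor of liver, had 0 and 1 counts, and PRLR, the prolactin receptor, had 0 in both. IFNAR2 was counted at 7.56 ± 0.564 CPM, but 83.2% of its exons are shared with overlapping genes.

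The TGF-beta, WNT and NOTCH receptors were detected in 25 of 32 cases (78.1%, against 60.1% of all protein-coding genes). None of them was at 0 in both libraries. FZD6, a WNT receptor, was at 144 ± 1.47 CPM (128 TPM), the TGF-beta coreceptor ENG at 95.6 ± 9.99 CPM (88.0 TPM), NOTCH2 at 276 ± 2.85 CPM and the WNT coreceptor LRP6 at 138 ± 3.76 CPM.

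Uptake and adhesion molecules held the highest receptors of all 4 lists. Of 53 members 40 were detected (75.5%, against 60.1% of all protein-coding genes), with a median of 47.6 TPM. BSG (basigin, a partner of lactate transporters) was at 762 and 745 CPM (718 TPM, percentile 99.1). TFRC, the transferrin receptor, was at 756 and 753 CPM (346 TPM). CD55, which protects cells from complement, was at 475 ± 6.78 CPM and FOLR1, a folate receptor, at 81.4 ± 0.294 CPM (179 TPM). NCAM1, DPP4 and CEACAM5 had 0 counts in both untreated libraries. CD274 (PD-L1) had 15 and 10 counts, or 0.735 ± 0.258 CPM, and its highest treated library was at 4.04 CPM.

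**Figure D4:**
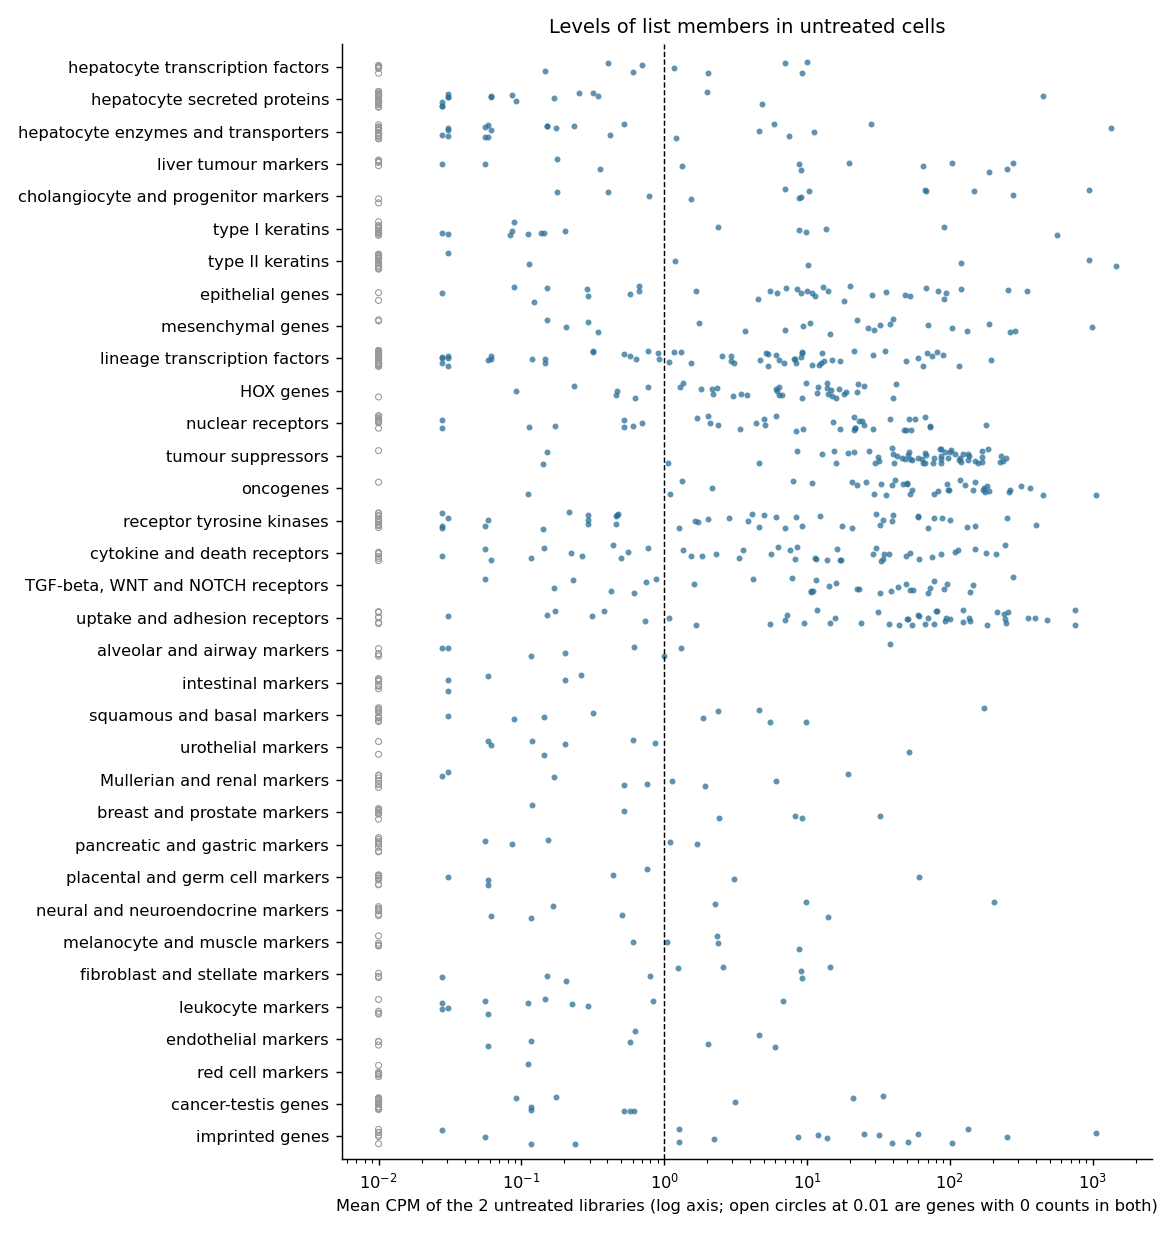
Mean CPM of the 2 untreated libraries on a log axis for the measured members of 34 gene lists, 1 point per gene, with genes at 0 counts in both as open circles at 0.01 and a dashed line at 1 CPM. Tumour suppressors and oncogenes crowd to the right, while hepatocyte lists and panels of other tissues lie mostly at 0 or under 1 CPM.

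Marker panels of other tissues and cell types were also mostly low. No member of 13 intestinal or 7 red cell markers was detected. Detection held for 2 of 13 alveolar and airway, 1 of 10 urothelial, 3 of 16 Müllerian and renal, 4 of 14 breast and prostate and 1 of 14 pancreatic and gastric markers. It also held for 6 of 21 squamous and basal, 2 of 16 placental and germ cell, 4 of 15 neural and neuroendocrine and 3 of 10 melanocyte and muscle markers. Each of these shares lay below the 60.1% of all protein-coding genes. Several panels join markers of different tissues, so detection in full could not be looked for in a single cell type. The counts of detected members give these cells no name here.

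A few members of these panels stood out by CPM. TRIM29, a gene of stratified epithelia, was at 175 and 171 CPM (61.2 TPM). ALPP, placental alkaline phosphatase, was at 57.2 and 63.5 CPM, with close copies ALPG and ALPI that could share its reads, and ran from 10.7 to 39.3 CPM in the treated libraries. ENO2, the neuronal enolase, was at 221 and 188 CPM (173 TPM). MUC16, the CA125 antigen, was at 19.3 ± 1.97 CPM but, being long, at only 1.60 TPM.

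Cells that could accompany a liver culture left few counts. Of 15 leukocyte markers 1 was detected, CD14 at 6.83 ± 0.658 CPM, and PTPRC, the pan-leukocyte CD45 gene, had 0 and 1 counts. The leukocyte panel summed to 7.96 and 9.34 CPM. Of 10 endothelial markers 3 were detected, PECAM1 among them at 4.59 ± 0.0846 CPM, with a panel sum of 13.2 and 14.8 CPM. Of 12 fibroblast and stellate markers 5 were detected, with a sum of 36.2 and 39.5 CPM. The share detected in each of these panels lay below the 60.1% of all protein-coding genes. The part of such cells in the levels of other genes was not tested.

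By CPM the leading genes were MT-CO1 at 10956 ± 486, the elongation factor EEF1A1 at 8892 ± 114, the mitochondrial ribosomal RNA MT-RNR2 at 6239 ± 14.4 and the glycolytic GAPDH at 5725 ± 83.5. The 20 highest genes by CPM held 8 mitochondrially encoded genes and 5 genes of glycolysis and lactate formation, a count made after the values were seen. Of these, LDHA, which makes lactate, was at 4665 ± 56.2 CPM, ENO1 at 3913 ± 89.0 CPM, PKM at 3781 ± 7.60 CPM and PGK1 at 3234 ± 8.14 CPM. The 20 highest by TPM held 15 mitochondrially encoded genes and, of the glycolytic genes, GAPDH alone. LDHA had TPM rank 29, ENO1 30, PGK1 38 and PKM 53. The 10 highest genes took 5.87% and 5.77% of all counts, and the 1000 highest 49.7% and 49.5%. The median detected gene was at 27.7 CPM.

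Promoter letters varied with detection across the table. The promoters of 9737 detected protein-coding genes had a median ratio of observed to expected CpG of 0.848, and 71.6% held GGGCGG. The 3125 promoters of protein-coding genes at 0 counts in both libraries had a median ratio of 0.303, and 30.4% held GGGCGG. For 31 promoters of hepatocyte genes at 0 the median ratio was 0.192, with TATAAA in 41.9% and GTTAAT in 32.3%. The shares with TATAAA and GTTAAT were 30.8% and 15.4% for 13 promoters of detected hepatocyte genes, 20.5% and 10.5% for all protein-coding genes at 0, and 5.11% and 3.22% for detected protein-coding genes. Among the 49 tumour suppressor promoters the median ratio was 0.853. In the windows printed above the ratio was 0.481 for ALB, 0.123 for AFP, 1.06 for STK11 and 1.13 for CDKN2A. STK11, which fell just short of the detection rule, was thus nearer the median of detected genes. In windows not printed, the ratio was 0.111 for KRT8 (1446 CPM), 0.298 for CPS1 (1341 CPM), 0.409 for HNF4A and 0 for FHIT. The windows of KRT8, CPS1 and FHIT lie inside their annotated genes, so starts further upstream are not covered. In these windows KRT8 and CPS1, both at high levels, lay below the median of genes at 0 counts. Which start these cells use was not measured, so the ratios may not describe the promoters in use. The RefSeq table held a promoter for 65 of the 92 hepatocyte genes, and no test was made.

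The untreated libraries agreed closely apart from a few genes. Chi-square of their counts over 15776 genes was 2.36 per degree of freedom, above the value of sampling noise, so they were kept as 2 libraries. Among 11060 genes with a mean of at least 5 CPM the median absolute log2 ratio was 0.07. In that set 6 genes (0.0542%) differed at least 2-fold, and of 365 list members in it 1 did (0.274%), which was H19. The 6 were H19, SERF1A, RPL26P19, MRPL23 and 2 genes that had no symbol, or only a clone or LINC-type name, in the naming table used. KRT7, KRT8, KRT18 and CDKN2A differed by -0.09, -0.10, 0.11 and -0.12 (log2, library 1 over library 2).

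H19 (ENSG00000130600, chromosome 11, 1995176 to 2001470, minus strand), an imprinted noncoding RNA of fetal liver, had 2867 and 586 counts, or 175 and 32.4 CPM, a log2 ratio of 2.44. The treated libraries lay between 3.72 and 27.3 CPM. Untreated library 1 was thus the highest of all 6, and its group's mean of 104 CPM rests on that library. MRPL23, the next protein-coding gene, was at 15.6 and 6.41 CPM, also higher in library 1, while IGF2, on the other side, had 0 and 2 counts. SERF1A, which has a near-identical copy, was at 1.16 and 17.5 CPM, against 1.09 to 1.29 CPM in the treated libraries. RPL23A, a ribosomal protein gene with many pseudogenes, was at 859 and 544 CPM.

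**Figure D5:**
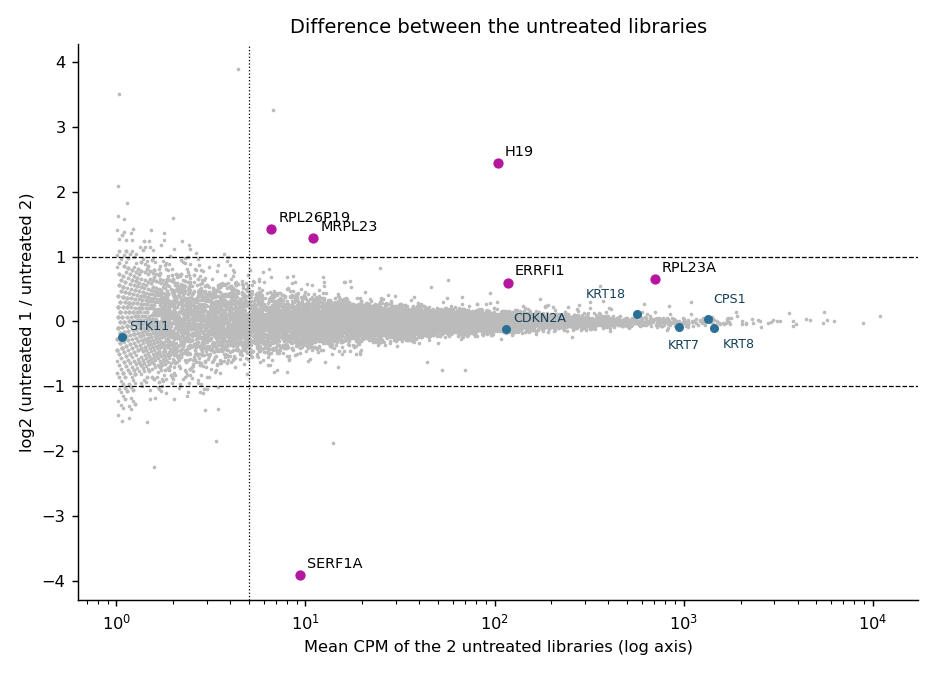
Log2 ratio of untreated library 1 over library 2 against their mean CPM on a log axis, 1 grey point per gene with a mean of at least 1 CPM and a count in both. Dashed lines mark 2-fold, the dotted line 5 CPM, blue points marker genes and CPS1, and purple points genes that differ, with H19 at 2.44 and SERF1A at -3.91.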

How the data were processed

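Polyadenylated RNA was sequenced in 6 libraries of cells labelled MHCC97-H, grouped by their treatment label. The authors deposited raw whole-number counts for 62710 Ensembl genes. Per the submitters' processing notes, fastp was used and the build was GRCh38. Which aligner, annotation release and strand option were used is not given in the sources used here. Without strand, reads of overlapping genes cannot be told apart, so shared exon shares are given.

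Library totals were scaled with TMM factors of all 6 libraries over 16877 genes passing filterByExpr (edgeR 4.0.16, R 4.3.3). TPM used the summed exon length in GENCODE release 29, which placed 58274 genes. It left out 296 detected genes without a length (0.266% of untreated counts). Percentiles are ranks of mean TPM among 13614 detected genes. Levels are mean ± SD of 2 libraries, and floors and exact Poisson intervals at 95% cover counting error only. Exon overlaps came from bedtools 2.31.1, other values from Python 3.11.15 with pandas 2.3.3. Size factors of DESeq2 1.42.0 were an alternative scaling. Only the 2-fold comparison of the untreated libraries and the TPM step were run on simulated counts. Those counts had Poisson noise alone, less than the spread between these libraries, and detection calls and floors were not part of that run.

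No difference between conditions was tested and no test across genes was run. Values of treated libraries are set beside untreated ones for some genes only. Members and lists were chosen with earlier results of these data known. Named genes were the 8 markers, the 20 highest genes by CPM and by TPM, the 6 highest detected members per TPM of each list (10 for lineage factors, tumour suppressors, tyrosine kinases and nuclear receptors), the 3 hepatocyte genes of each list with most counts, tumour suppressors under 1 CPM, the 10 largest differences between the untreated libraries among genes with a mean of at least 5 CPM, a symbol and no clone name, and 4 neighbours on each side of CDKN2A, STK11, ALB and H19. Other genes in the text, among them the urea cycle beyond CPS1, the LKB1 partners, the neighbours of FHIT, members listed at 0, RPL23A and familiar tumour suppressors, were chosen after their values were seen. Alternatives were other scalings, other detection thresholds, another gene length and each untreated library left out. Some members of these lists are not reported here.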

Additional observations from a re-analysis of the deposited data

How the results depend on the processing

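No paired analysis was possible because no result comes from a test between groups. The number of genes that differed at least 2-fold between the untreated libraries was 6 at a minimum mean of 5 CPM, 105 at a minimum of 1 CPM and 1 at a minimum of 20 CPM, where only H19 was left, and the minimum itself sets how many low genes enter. Detected genes ran from 12550 (2 CPM in both libraries) to 15370 (0.5 CPM in both), against 13910, and from 14245 to 14319 with either untreated library alone. Detected hepatocyte genes ran from 11 to 17 over these alternatives, tumour suppressors from 56 to 57, tyrosine kinases from 27 to 31 and lineage factors from 35 to 43. RLE factors, upper-quartile factors and totals alone moved no named level by more than 1.02-fold, and totals without mitochondrial genes by 1.05-fold. Of 204 named genes at 1 CPM or more, leaving out untreated library 1 moved a mean by at most 3.21-fold, that of H19, and leaving out library 2 by at most 8.01-fold, that of SERF1A. Ranking by CPM in place of TPM moved the percentile of a named gene by 5.40 points in the median and 53.2 at most, and the longest transcript as length by 1.87 and 23.2. Depth limits statements on genes at 3 counts or fewer to upper bounds.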

Other observations

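Imprinted genes were read as values only. Of 25 measured, 15 were detected (60%), a share close to the 60.1% of all protein-coding genes. GNAS, the gene of the stimulatory G protein, was at 1068 and 1052 CPM, PLAGL1, a zinc finger factor, at 135 ± 3.56 CPM, and CDKN1C, a growth inhibitor, at 39.4 ± 0.784 CPM. The maternally expressed RNA MEG3, its neighbour DLK1 and the paternally expressed PEG3 had 0 counts in both untreated libraries.

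Of 25 measured cancer-testis genes, expressed mainly in germ cells, 3 were detected (12%, against 60.1% of all protein-coding genes). MAGEA1 was at 33.2 and 34.3 CPM and at 28.9 to 34.7 CPM in the treated libraries, PRAME was at 20.9 ± 1.20 CPM, and XAGE1B, which has near-identical copies, at 3.15 ± 0.307 CPM. MAGEA4, CTAG1B and SSX2 had 0 counts in both untreated libraries.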
